A study of Mus musculus with 6 samples.

Results

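The 9 genes described here encode the secreted R-spondins (Rspo1, Rspo2, Rspo3 and Rspo4), the receptors that bind them (Lgr4, Lgr5 and Lgr6) and the membrane ubiquitin ligases on which they act (Znrf3 and Rnf43). They were chosen by name, as the probes whose RefSeq accession maps to these symbols. Each of the 9 had 1 probe, out of 55681 probes and 20676 gene symbols on the array. RNA was taken from cells grown out of the heart or the skinned tail of male C57/Bl6-J mice, labelled as 8 weeks old and given as 8 to 10 weeks in the protocol. The tissue was digested with trypsin or collagenase type II and the cells were kept for 5 days in serum-containing medium, with no agent or allele labelled in either group. There were 3 heart and 3 tail cultures, described as biological replicates, with the cells of 2 mice combined in each culture and 1 Cy3 array per culture, and p-values measure the spread between such cultures. Which enzyme was used for which culture, whether cells were sorted and whether both tissues came from the same animals are not given in the sources used here.

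R-spondins do not signal through a pathway of their own. Znrf3 and Rnf43 are RING-type ligases that mark Frizzled receptors and Lrp6 for removal from the cell surface, and so hold the response to Wnt ligands down. An R-spondin held between an Lgr receptor and such a ligase causes the ligase to be cleared, and Frizzled receptors then accumulate. Lgr5 is widely known as a marker of stem cells of the gut and hair follicle, and both Lgr5 and Rnf43 are themselves target genes of Wnt signalling in several tissues.

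Values are log2 of the background-subtracted signal minus the 75th percentile of all non-control probes on the same array, so 0 is the level of that percentile. A probe is called well above background where the scanner software marked it so. The array labelled heart 2 stood apart: the scanner software marked 99.3% of its spots as well above background (47.3% to 55.2% elsewhere), so that mark says little there. Its correlation with the rest, over probes, was 0.742 to 0.764, and pairs without it reached 0.957 to 0.988. The array labelled tail 1 went against its label. It held Tcf21, a transcription factor of cardiac fibroblasts, at 5.44, next to 5.37 and 5.28 on heart 1 and heart 3 and -5.45 and -5.64 on tail 2 and tail 3. Heart 2 went against its label too, with Tcf21 at -2.38. It read 4.44 for Hoxb13, a homeobox gene of the tail end of the body, which was 6.60 and 6.76 on tail 2 and tail 3 and not well above background on heart 1, heart 3 or tail 1. Each result is therefore given for all 6 arrays by label and for heart 1 and 3 against tail 2 and 3 (4 arrays, n = 2 per group). Leaving out tail 1 rests on the outcome itself, so its p-values understate the error, to a degree that is not known. Of the 9 cultured-fibroblast markers listed, among them Col1a1, Pdgfra and Ddr2, all 9 were well above background on every array.

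All 9 genes had a signal well above background on heart 2, but only 3 to 6 of them on each other array. Rspo1, Rspo3 and Lgr4 were well above background on all 6 arrays. Rspo4 and Rnf43 were so on heart 2 alone, and Lgr6 on heart 1 and heart 2. In the 4-array comparison 6 of the 9 genes entered the test, of which 4 (Rspo2, Rspo3, Lgr4, Lgr5) were higher in tail and 1 (Rspo1) higher in heart, while Znrf3 did not pass. Over all features 14.4% were called in that comparison (limma, adjusted p under 0.05; 7.75% higher in heart and 6.63% higher in tail; 28.7% at an unadjusted p under 0.05). Rspo2 and Lgr5 were tested only because their tail arrays were bright, so for these the count carries no weight, and Znrf3 only through its heart arrays. By label 4 of the 9 were tested and 0 passed, where limma called 0% of 20197 features (2.2% at an unadjusted p under 0.05, among them Znrf3).

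**Figure D1:**
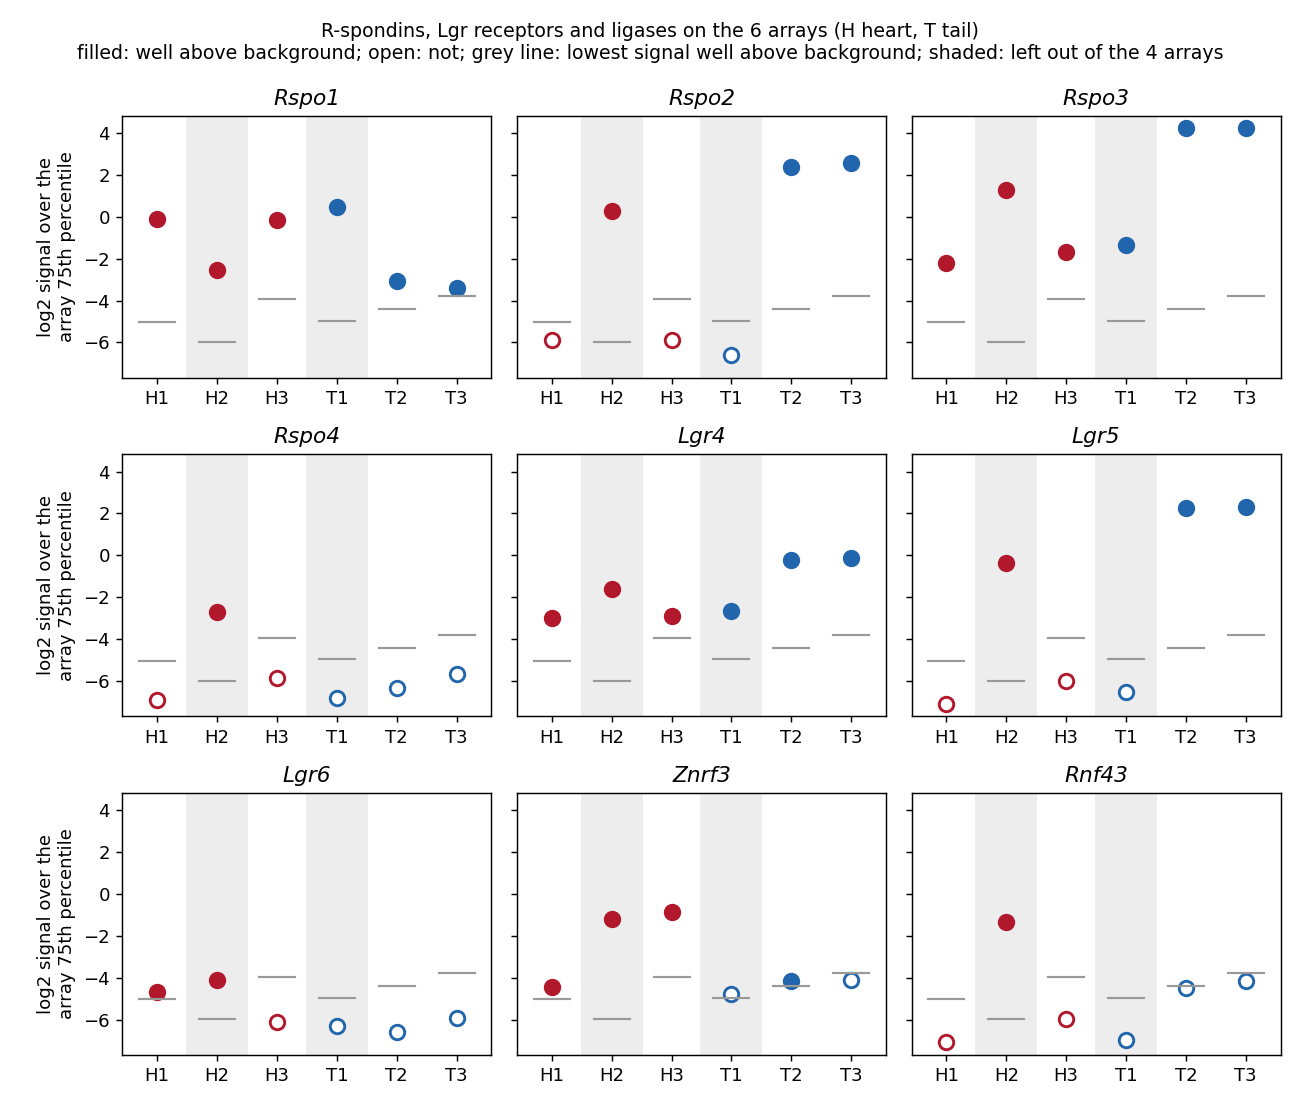
Each panel plots 1 gene on the 6 arrays (H heart, T tail), as log2 signal over the 75th percentile of the array, with heart in red and tail in blue. Filled points are well above background, open points are not, grey lines mark the lowest signal well above background on that array, and shading marks heart 2 and tail 1. Rspo2, Rspo3, Lgr4 and Lgr5 are highest on tail 2 and tail 3, while tail 1 lies with heart 1 and heart 3.

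Among the ligands, Rspo3 and Rspo2 were far higher in tail than in heart cultures on the 4 arrays, and Rspo1 was higher in heart cultures there. Rspo3, which is best known from vascular and placental development, read -2.19 on heart 1, 1.29 on heart 2, -1.68 on heart 3, -1.34 on tail 1, 4.25 on tail 2 and 4.22 on tail 3. Tail 2 and tail 3 thus stood above every other array, tail 1 lay between heart 3 and heart 2, and the labelled groups overlapped. The fitted difference, heart minus tail, was -6.17 on 4 arrays (SE 0.22, limma adjusted p = 0.000873), a 72.0-fold higher level in tail. With all 6 arrays it was -3.24 (SE 1.57, adjusted p = 0.714).

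Rspo2, a ligand needed for limb and lung development, was not well above background on heart 1 (-5.89), heart 3 (-5.87) or tail 1 (-6.58). On tail 2 and tail 3 it read 2.38 and 2.59, and on heart 2 it read 0.26. In processed signal that is 2004 and 2751 on tail 2 and tail 3 against 10.2 and 7.78 on heart 1 and heart 3. On the 4 arrays tail exceeded heart at least 126-fold. This bound sets the mean of the brighter arrays against the lowest signal called well above background on each dimmer array. The fitted difference was -8.36 (SE 0.16, limma adjusted p = 0.000548). Rspo2 entered that test only through its bright tail arrays, so this p-value carries no weight. By label the difference was -3.29, between overlapping groups, and was not tested. The authors' deposited table, whose normalization and choice of probes are not given in the sources used here, lists Rspo2 with a log2 fold change of -7.10, that is 137-fold higher in tail. Over 413 of its probes, its fold changes correlated with each array's deviation from the mean of the 6 arrays. The correlation was 0.969 for heart 1, 0.982 for heart 3, 0.98 for tail 1 and -0.573 for heart 2. It was -0.984 for tail 2 and -0.988 for tail 3. Which arrays that table rests on was not tested. Rspo3 is not among its 433 probes.

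Rspo1 went the other way. This ligand is best known for its part in ovary determination. It read -0.10 on heart 1, -0.13 on heart 3 and 0.48 on tail 1, against -3.07 on tail 2, -3.40 on tail 3 and -2.53 on heart 2. The highest of the 6 values was thus on an array labelled tail, and heart 2 lay next to tail 2 and tail 3. On 4 arrays the heart minus tail difference was 3.12 (SE 0.18, limma adjusted p = 0.00158), an 8.67-fold higher level in heart. By label it was 1.07 (SE 1.11, adjusted p = 0.714).

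Rspo4, the ligand required for nail formation, gave no signal well above background outside heart 2. It read -6.93 on heart 1, -5.85 on heart 3, -6.83 on tail 1, -6.31 on tail 2 and -5.65 on tail 3, and -2.70 on heart 2. It was not tested, and no order between the tissues can be read from values below background.

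Among the receptors, Lgr5 and Lgr4 were both higher in tail on the 4 arrays, while the labelled groups overlapped. Lgr5 read 2.24 on tail 2 and 2.32 on tail 3 and -0.38 on heart 2, and was not well above background on heart 1 (-7.11), heart 3 (-6.00) or tail 1 (-6.54). The processed signals on tail 2 and tail 3 were 1819 and 2283, and those on heart 1, heart 3 and tail 1 lay between 4.40 and 7.08. Tail exceeded heart at least 109-fold on the 4 arrays (fitted difference -8.83, SE 0.39, limma adjusted p = 0.00117). Lgr5, too, was tested only through its bright tail arrays, so this p-value carries no weight. By label the difference was -3.84, again between overlapping groups and not tested. Lgr5 is not listed in the authors' deposited table.

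Lgr4, the most broadly expressed of these receptors, was above background on every array and differed less. It read -3.02 on heart 1, -2.89 on heart 3 and -2.64 on tail 1, then -1.59 on heart 2, and -0.22 and -0.11 on tail 2 and tail 3. Heart 2 fell between both sets of values. The 4-array difference was -2.79 (SE 0.15, limma adjusted p = 0.00149), a 6.93-fold higher level in tail, and the difference by label was -1.51 (SE 0.77, adjusted p = 0.714). Lgr6, a receptor gene known from skin appendages, was near background. It read -4.69 on heart 1 and -4.13 on heart 2, both well above background, and -6.13, -6.32, -6.62 and -5.95 on heart 3 and tail 1, 2 and 3, none of which was. It was not tested.

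Promoter sequence was matched by symbol for 5 of the 9 genes in the RefSeq table for GRCm38.p6 (Rspo1, Rspo4, Lgr4, Lgr6 and Rnf43). The 250 bases before the start site are shown for Lgr4 and Rspo1, the genes called in opposite directions that have an entry. Both strands were searched for 4 short motifs, and matches are in capitals. The first was the CCAAT box, by these letters. The core of the TCF/LEF site, through which Wnt signalling acts on its target genes, was searched as CTTTGA. The TATA box of promoters with a fixed start was searched as TATAAA. The GC box, the kind of site bound by Sp1, was searched as GGGCGG, and no motif overlapped another in the windows shown. Lgr4 is at chr2:109917397-109917646, plus strand, and Rspo1 at chr4:124986180-124986429, plus strand.
Lgr4: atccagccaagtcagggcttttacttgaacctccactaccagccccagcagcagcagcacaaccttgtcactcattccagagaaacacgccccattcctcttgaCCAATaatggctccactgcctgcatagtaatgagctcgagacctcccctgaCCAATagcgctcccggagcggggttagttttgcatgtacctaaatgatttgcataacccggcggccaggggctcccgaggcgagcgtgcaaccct
Rspo1: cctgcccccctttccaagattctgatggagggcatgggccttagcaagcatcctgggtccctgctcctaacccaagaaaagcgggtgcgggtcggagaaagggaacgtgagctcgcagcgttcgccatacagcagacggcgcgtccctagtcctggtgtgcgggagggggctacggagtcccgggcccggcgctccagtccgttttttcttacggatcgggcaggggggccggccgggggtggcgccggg
The Lgr4 window held 2 CCAAT boxes, starting 146 and 95 bases before the start site, and was 55.6% G and C. The Rspo1 window held none of the 4 motifs and was 66.8% G and C. Among all 32851 promoter windows of this length, 33.8% held a CCAAT box, 13.8% the TCF/LEF core, 12.4% a TATA box and 32.7% a GC box. The TCF/LEF core was in none of the 6 windows of the 5 matched genes. These matches describe letters only, and no binding was measured.

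Neither ligase gene could be called. Znrf3 read -4.44 on heart 1, -1.21 on heart 2 and -0.88 on heart 3, against -4.78, -4.18 and -4.11 on tail 1, tail 2 and tail 3, and of the tail arrays it was well above background on tail 2 alone. Heart 2 and heart 3 were high and heart 1 lay among the tail values. The difference was 1.49 on 4 arrays (SE 1.19, 95% interval -1.68 to 4.65, limma adjusted p = 0.463). Without heart 1 it was 3.27 and without heart 3 it turned to -0.30, so that 1 heart array decided it. Over the 7 other settings that kept all 4 arrays and tested it, limma adjusted p ran from 0.276 to 0.729. By label the difference was 2.18 (SE 0.90, limma adjusted p = 0.714, unadjusted p = 0.0417). In both comparisons Znrf3 entered the test through its heart arrays alone, so its p-values carry no weight as support.

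Rnf43 was dim throughout. It read -7.08, -5.99 and -7.00 on heart 1, heart 3 and tail 1, -4.52 and -4.17 on tail 2 and tail 3, and -1.35 on heart 2, and heart 2 was the only array on which it was well above background. By label the mean was higher in heart by 0.42, with overlapping groups and heart 2 as the highest array. The authors' deposited table lists the same probe with a log2 fold change of -2.08. It was not tested here, because none of the signals on heart 1, heart 3, tail 2 and tail 3 was well above background, and no order between the tissues can be read from them.

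**Figure D2:**
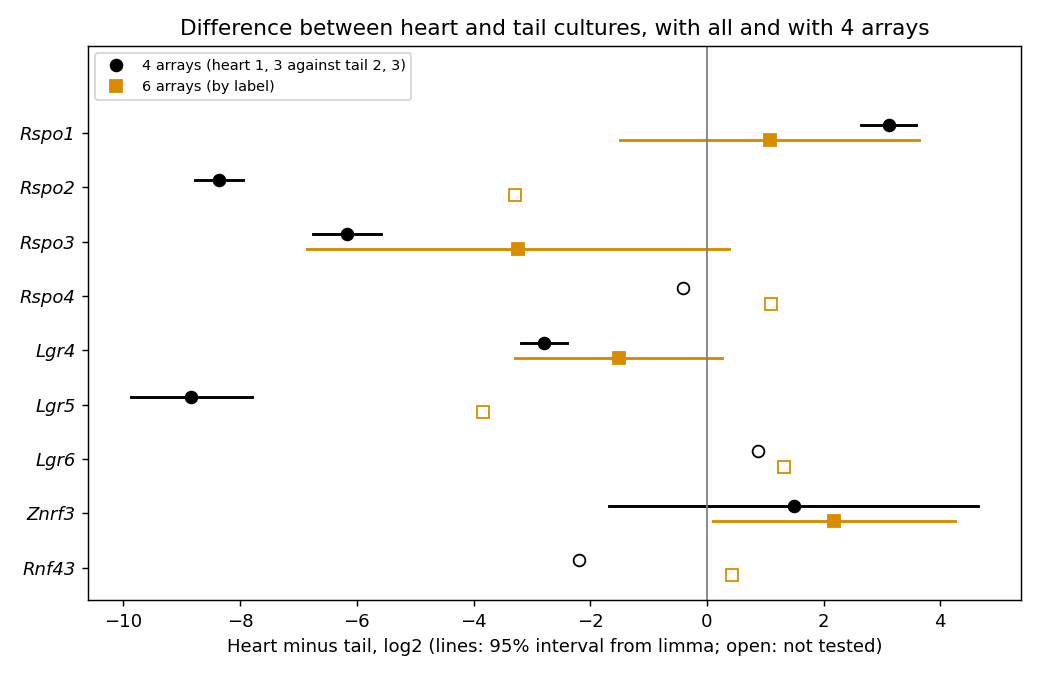
Heart minus tail difference in log2 for the 9 genes, with all 6 arrays by label (squares) and with heart 1 and 3 against tail 2 and 3 (circles). Lines are 95% intervals from limma, and open symbols mark genes not tested. The 4-array intervals of Rspo1, Rspo3 and Lgr4 lie clear of 0 and that of Znrf3 does not. Those of Rspo2 and Lgr5 also lie clear of 0, but both were tested through bright tail arrays alone. By label the intervals of Rspo1, Rspo3 and Lgr4 include 0, and that of Znrf3 runs from 0.10 to 4.26, with an adjusted p of 0.714 from limma.

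Of the called genes, Rspo1, Rspo3 and Lgr4 were above background in both tissues, so that their differences have a measured value on both sides. For Rspo1 the tail side was dim, and its -3.40 on tail 3 lay near the lowest signal well above background there (-3.79). On the 4 arrays 0.491% of features, 101 in number, were called with tail at least 5 log2 units above heart, and Rspo3 was among these. Rspo1 and Rspo3 were among the 3.36% called with a difference of at least 3 in either direction. For Rspo2 and Lgr5 the bounds given above stand in place of a measured difference. The median absolute difference over all 20567 features tested was 0.32. Groups of 2 that do not overlap were common, at 62.5% of features (25.5% with heart above tail and 36.9% with tail above heart). By label 10.4% of features had groups that do not overlap, 2.05% with heart above and 8.32% with tail above, and all 9 genes overlapped. Heart 2 lay nearer to the tail mean for 4 of the 5 called genes (all but Lgr4), and tail 1 nearer to the heart mean for 5 of 5. Both arrays were left out with their positions against their labels known, so these counts carry no weight. The share over all called features was not taken. Leaving out tail 1 alone gave by-label differences of -5.09 for Rspo3, -2.34 for Lgr4, 2.31 for Rspo1, -6.32 for Rspo2 and -6.78 for Lgr5. Leaving out heart 2 alone gave -4.31 for Rspo3, -1.97 for Lgr4 and 1.88 for Rspo1, and none of these passed limma (adjusted p from 0.181 to 0.697). In the first slide row heart 1 minus tail 2 was 2.97 for Rspo1, -8.27 for Rspo2, -6.44 for Rspo3, -2.80 for Lgr4 and -9.35 for Lgr5. That row also holds heart 2 and tail 1. With these included by label, the differences were -0.021, -0.71, -1.91, -0.87 and -1.60 in the same order. In the second row heart 3 minus tail 3 was 3.26, -8.46, -5.90, -2.78 and -8.32 in the same order.

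The calls of Rspo1, Rspo3 and Lgr4 held in each of 8 other settings that kept all 4 arrays, with limma adjusted p from 9.37e-06 to 0.0308. With 1 array left out the differences were 2.95 to 3.28, -6.42 to -5.92 and -2.85 to -2.73. These refits are no separate support, because all rest on arrays kept after tail 1 was left out on its outcome. Each gene has 1 probe, so averaging probes could change nothing. The filter, spread estimate and slide row settings left the differences unchanged. Rspo2 and Lgr5 entered the test through their tail arrays alone, and refits add nothing for them. Size depended on background correction. With normexp and an offset of 50, which compresses dim signals, the differences shrank by more than 1.5 times for Rspo1 (2.00), Rspo2 (-5.09) and Lgr5 (-5.24), and less for Rspo3 (-5.41) and Lgr4 (-1.93).

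The genes whose values over the 6 arrays were most like those of each called gene were found among 13336 tested gene symbols, by the root mean square distance between centred log2 values. Nearest to Rspo2 were the homeobox genes Irx1 (distance 0.23) and Hoxc11 (0.36) and the tendon gene Tnmd (0.37). Nearest to Lgr5 were the carbonic anhydrase gene Car3 (0.33), Tnmd (0.34) and Hoxb7 (0.39). Rspo3 was most like Ptgfr, the prostaglandin F receptor gene (0.38), Radil (0.43) and the matrix gene Cilp (0.44). Lgr4 was most like Armh4 (0.12), Prkar1b (0.13) and Crxos (0.14), and Rspo1 most like Serpina3i (0.17), Il1r2 (0.20) and Enpp3 (0.22). All of these genes were found with heart 2 and tail 1 included.

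Other genes of the Wnt pathway differed in both directions. Of 50 such genes, all on the array, 45 were tested on 4 arrays, 3 were higher in heart and 6 higher in tail, with a median difference of -0.20 against -0.07 over all features. The 9 called are 20% of those tested, beside 14.4% of all features, and 46.7% had an unadjusted p under 0.05, beside 28.7%. Among the 9, Lef1, Axin2 and Fzd6 were tested through the arrays of 1 tissue alone, so for these the count carries no weight. With signal required on all 4 arrays 6 of 40 were called, beside 2160 of 18556 features. Of the 13 tested receptors and co-receptors, Fzd4 (2.39, limma adjusted p = 0.00203) and Fzd6 (1.86, adjusted p = 0.0174) were higher in heart. Ror2, a receptor for non-canonical Wnt ligands (-2.25, adjusted p = 0.00245), and Fzd7 (-1.44, adjusted p = 0.012) were higher in tail. Lrp5 and Lrp6, the co-receptors, differed by -0.18 and -0.20 (adjusted p = 0.503 and 0.431). Fzd7 was not called without a filter, tail 2 or tail 3 (adjusted p from 0.00548 to 0.107 over its alternatives), and its difference fell to -0.77 with the mean of its probes. Fzd6 lost its call under normexp (0.56, adjusted p = 0.0892) and without a filter, tail 2 or tail 3, with adjusted p from 0.00377 to 0.12 over its alternatives.

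In the cytoplasm, none of 13 genes passed with limma, from Dvl3 at -0.58 to the tankyrase gene Tnks at 0.89, and 2 had an unadjusted p under 0.05. Ctnnb1, which encodes beta-catenin, differed by 0.16 (adjusted p = 0.603). Among 7 tested nuclear effectors, Lef1 stood at least 4.12-fold above heart in tail cultures (-3.07, limma adjusted p = 0.00226; under normexp -1.05, adjusted p = 0.0164, from 0.000243 to 0.0349 over its alternatives) and Tcf7l2 was lower in heart by a smaller step (-0.93, adjusted p = 0.0233, lost in 5 of 12 alternatives, among them those without heart 3, tail 2 or tail 3, with adjusted p from 0.00674 to 0.249). The authors' deposited table lists Lef1 at -2.87, the only one of the 50 genes in it.

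Of 8 tested feedback and target genes, Axin2, a broadly used Wnt target, was higher in tail by 3.43-fold or more (-2.37, limma adjusted p = 0.00882). Under normexp its difference was -0.995, and without a filter it was not called (adjusted p = 0.0777, from 0.000995 over its alternatives). Ccnd1, the cyclin D1 gene, was 2.96-fold higher in tail (-1.56, adjusted p = 0.00825), and Apcdd1, a membrane inhibitor of Wnt signalling, 6.44-fold higher in heart (2.69, adjusted p = 0.00547). Ccnd1 was not called without a filter, tail 2 or tail 3 (adjusted p from 0.0025 to 0.0855), nor Apcdd1 without a filter (0.00101 to 0.0565). Lef1 and Axin2 were not well above background on heart 1 and heart 3, nor Fzd6 on tail 2 and tail 3, so each was tested through the other tissue alone. Refits therefore add nothing for Lef1, Axin2 and Fzd6. Nkd1, Nkd2, Notum, Myc and Tnfrsf19 did not pass, with differences from -0.95 to 0.11, and Sp5 was not well above background on any of the 4 arrays. Among other partners of R-spondins and Lgr proteins 0 of 4 passed with limma (Tnfsf11 1.12, Sdc4 0.76, Iqgap1 0.42, Bmpr1a 0.11), and 2 had an unadjusted p under 0.05. By label 0 of 44 tested pathway genes passed with limma, and 0 had an unadjusted p under 0.05. Without a filter on dim probes 3 of the 50 passed on 4 arrays, and 5 without tail 2 or without tail 3.

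**Figure D3:**
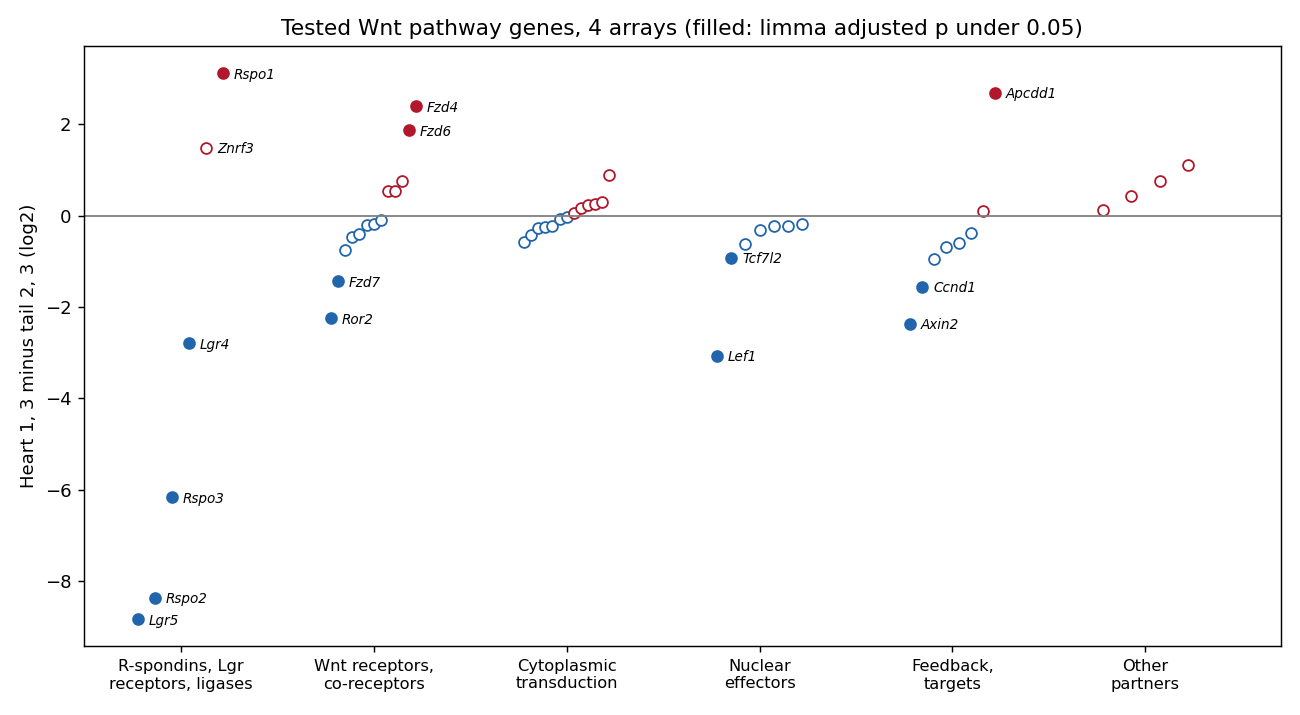
Difference between heart 1 and 3 and tail 2 and 3 in log2 for each tested gene of the R-spondin set and of 5 other Wnt pathway lists. Filled points passed limma at an adjusted p under 0.05, and points above 0 are higher in heart. Rspo3 lies at -6.17, Rspo1 at 3.12 and Fzd4 at 2.39. The points of Rspo2, Lgr5, Lef1 and Axin2 rest on heart signals not well above background, and that of Fzd6 on such tail signals.

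Markers of other cells moved with these results. In bulk cultures, fewer cells of a type and less RNA per cell cannot be told apart. The 4 tendon markers were all higher in tail, and their summed signal, in multiples of the 75th percentile, was 438 to 475 on tail 2 and tail 3, 69.3 on heart 2, and 0.399 to 0.547 on heart 1, heart 3 and tail 1. Thbs4 alone made up 97.8% of that sum on tail 2 and tail 3 and 96.2% on heart 2, so the sum there describes that probe. Of 7 smooth muscle and pericyte genes 5 were higher in tail (sum 777 to 943 against 262 to 296 on heart 1 and heart 3, 185 on heart 2 and 222 on tail 1). Acta2 alone made up 73.5% to 97.7% of each sum. Both sums were thus highest on tail 2 and tail 3, as were Rspo2, Rspo3, Lgr4 and Lgr5, and the part of such cells in the differences was not tested. For skeletal muscle Myh3 and Myog were higher in tail, while Myf5, Pax7 and Actn2 were not well above background on any of the 4 arrays. Other lists moved in part: Actc1 was the only one of 3 tested cardiomyocyte genes called, at least 29.9-fold higher in tail. Of 5 tested cartilage and bone genes 3 were higher in tail, Col10a1 by 51.1-fold or more, and 1, Sox9, was higher in heart (3.63). The sum was 9.49 to 10.6 in heart against 6.22 to 6.61 in tail. Sox9 alone made up 94.3% and 94.2% of it on heart 1 and heart 3, so the higher heart sum describes that probe. Of the adipocyte genes 2 of 4 (Plin1 and Pparg) were higher in tail, with a sum of 14.7 to 19.1 against 11.4 to 13.9. Fabp4, which was not called, made up 73% to 93.2% of that sum on the 4 arrays. Of the 2 tested Schwann cell genes S100b was higher in tail (sum 2.45 to 3.03 against 0.639 to 0.688). It made up 84.7% and 91.3% of the sum on tail 2 and tail 3. Their part in the results was not tested either. Tnmd, Mkx, Myh3, Myog, Actc1, Col10a1 and Plin1 were not well above background on heart 1 or heart 3, nor Thbs4, Myh11 and Runx2 on heart 3. Each was thus tested through its tail arrays alone, so for these the counts carry no weight.

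Keratinocyte and hair follicle markers, which bear on Lgr5 and Lgr6, had sums of 7.10 to 7.56 in heart and 6.60 to 7.33 in tail, but Trp63 alone made up 84.0% to 91.4% of each, so the sums describe that probe. Cdh1, Epcam and Krt1 were not well above background on any of the 4 arrays. Krt5 and Krt10 were so on all 4 and did not pass (-0.06 and -0.01). Dsp alone passed, higher in tail, by 6.88-fold or more (limma adjusted p = 0.00186). It was not well above background on heart 1 or heart 3, so it was tested through its tail arrays alone. With Rspo1, 5 of 7 endothelial and 5 of 6 leukocyte genes were higher in heart, among them Cldn5 and Ms4a7, though the endothelial sum, of which Kdr alone made up 77.9% to 97.5%, was 17.0 to 23.6 in heart and 18.9 to 25.4 in tail. Of 5 tested epicardial and mesothelial markers 2 were higher in heart (Wt1 and Msln) and 1 higher in tail (Krt19). The part of these cells in the Rspo1 difference was not tested. Wt1, Msln, Cldn5, Tie1 and Robo4 were not well above background on tail 2 or tail 3, nor Ptprc on tail 3, nor Krt19 on heart 3. Each was thus tested through the other tissue alone, so for these the counts carry no weight.

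**Figure D4:**
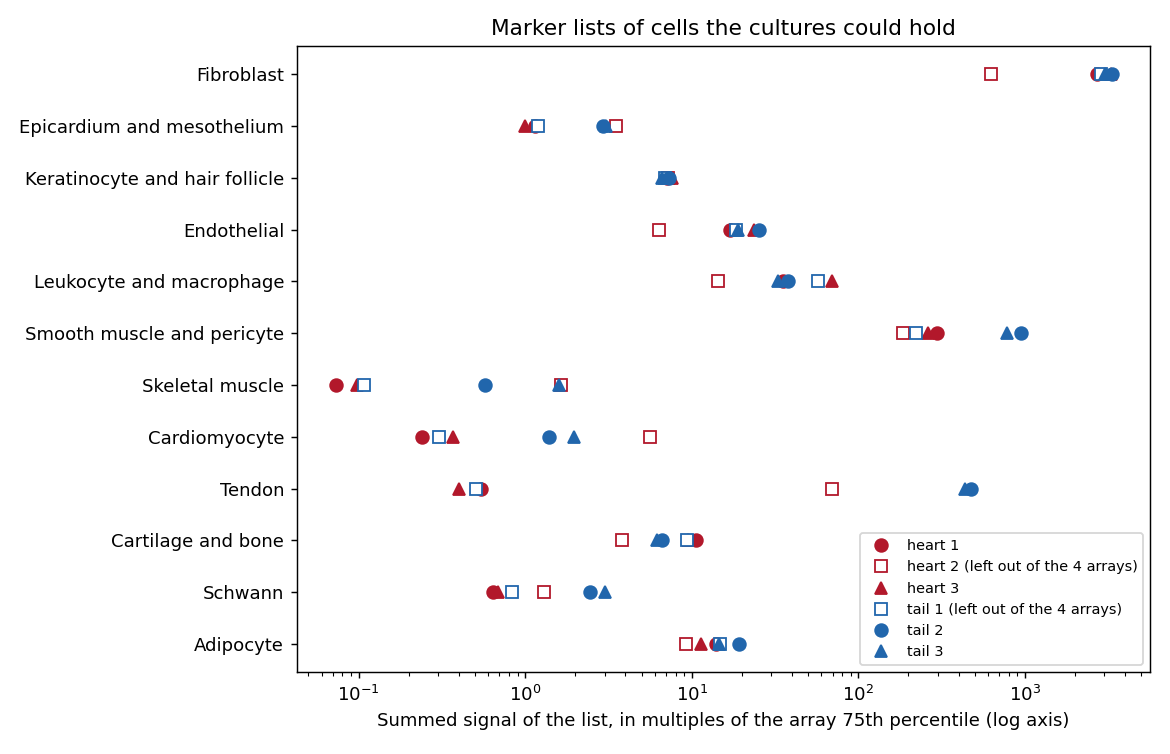
Summed signal of each marker list on each array, in multiples of the 75th percentile of the array, on a log axis. Red is heart, blue is tail, and open squares are heart 2 and tail 1. The tendon sum, mostly Thbs4 on tail 2 and tail 3, separates these arrays (438 to 475) from heart 1, heart 3 and tail 1 (0.399 to 0.547). The keratinocyte sums, mostly Trp63 except on heart 2, overlap. The smooth muscle sums are mostly Acta2 and the adipocyte sums mostly Fabp4.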

How the data were processed

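Spot intensities were deposited as scanner output of Agilent's Feature Extraction software, version 11.0.1.1, per the file headers. Flags of other kinds (0 or 1 per spot, well above background and outlier) are deposited beside them, per the file headers. A table deposited by the authors gives log2 fold changes and signed fold ratios of heart over tail for 433 probes, with no stated normalization. The header names the mouse build mm9, so no coordinates of probes are printed.

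Each value was log2 processed signal minus the array's 75th percentile, with outlier spots left out. RefSeq accessions named 27235 probes, and 27 more took their names from the deposited log2 list. A feature was kept if each array of 1 or both groups had it well above background, the brightest probe per gene was used, and limma 3.58.1 (R 4.3.3, two-sided, Benjamini-Hochberg over all features) compared the groups. The scripts were tested on simulated data. Groups and replicate numbers came from the titles. Other settings changed the scaling, background correction (normexp, offset 50, on median spot signals), filter, probe rule, spread estimate, slide row, replicate block, array weights and each array left out.

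The 9 genes, the lists, the 4-array comparison and the rule for named genes were chosen with earlier results of these data known. That rule takes the 9 genes, up to 4 called genes per pathway list, the 3 nearest genes of each called gene, and markers; pathway genes named with no call were added after their values were seen. The number of arrays limits the precision.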

Additional observations from a re-analysis of the deposited data

How the results depend on the processing

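On 4 arrays, quantile, median and normexp scaling changed no direction or call of Rspo1, Rspo3 and Lgr4, and no scaling moved the median difference by more than 0.025. By label, quantile scaling moved that median by 0.12 and median scaling by -0.93. The count called on 4 arrays was 2957 and ran from 1572 to 3951 with 1 array left out, and fell to 716 without a filter. That of the 9 genes was 5, or 5 to 6 with 1 array left out, and 3 of 3 tested with signal required on all 4 arrays, where Rspo2 and Lgr5 are not tested. That of the pathway lists was 9, then 3 without a filter and 5 to 12 with 1 array left out. By label the count of 0 rose to 2329 with array weights, and ran from 0 to 214 with 1 array left out. With array weights 8 pathway genes and 3 of the 9 genes passed (Rspo1 2.99, Rspo3 -5.91, Lgr4 -2.69), and with 1 array left out 0 to 1. Signs turned by label for Rspo1 (quantile, -0.20), Apcdd1 (quantile -0.33, median scaling -0.045) and Fzd4 (median scaling -0.68, and -0.43 to 1.61 with 1 array left out, below 0 without heart 1, heart 3, tail 2 or tail 3). On 4 arrays the sign of Znrf3 turned without heart 3 (-0.30, against 3.27 without heart 1). The cause of these changes was not tested. Where an array left out leaves 1 in a group, that array is assumed to vary like the others. Dim probes limit what can be said of Rspo4, Lgr6 and Rnf43.

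A replicate block in the comparison by label raised the calls to 44 (35 with heart above tail and 9 the reverse), among them 1 of the 9 genes (Rspo3, -3.24, adjusted p = 0.0365, against 0.0284 to 0.921 over its alternatives). Deviations of same-numbered arrays correlated at 0.195, 0.259 and -0.33, so the numbers were not taken as pairs, and heart 2 correlated best with tail 3. No paired analysis was possible because the groups share only number 3 in the 4-array comparison.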

Other observations

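Znrf3, chosen after its values were seen, differed by 3.56 log2 units between heart 1 and heart 3, and 19 of 20567 features tested on 4 arrays (0.0924%) had a larger gap between these arrays. Its gap between tail 2 and tail 3 was 0.07. Rspo1, well above background on both, differed by 0.03 between the same heart arrays, and 93.9% of features had a larger gap. Among the markers listed, Krt15, a keratin gene of basal skin and hair follicle cells also singled out after its values were seen, read 0.57 on heart 2 and -1.31 on heart 3 and was not well above background on the other 4 arrays.

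Rspo4 and Rnf43 had processed signals of 356.5 and 910.1 on heart 2, against 4.85 to 9.15 and 4.50 to 25.5 on the other 5 arrays. Both lay below the median processed signal of heart 2, which was 949.4 against 24.3 to 37.8 on the others.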
